A study of Spodoptera exigua with 2 samples.

Results

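SPARC-high hemocytes are blood cells of Spodoptera exigua larvae in which transcripts of SPARC (SPEXI_LOCUS820) made up at least 100 of every 10000 UMIs of the cell. A unique molecular identifier (UMI) marks 1 captured mRNA molecule, so UMIs count molecules rather than reads. Cells with at least 200 genes and 1000 UMIs were eligible. Cells with 200 or more UMIs per 10000 of the prophenoloxidase genes PPO1 plus PPO2, or with 1000 or more of procathepsin H plus cysteine proteinase 1-like, were left out. By this rule 3543 of 12157 eligible naïve cells and 2804 of 11458 eligible challenged cells were SPARC-high, which gave 6347 of 23615 cells in all. The 5 genes of the rule chose the cells, and their levels are therefore a description and not a finding.

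The study compared hemocytes of last-instar larvae that received phosphate-buffered saline (naïve) with those of larvae that each received 140000 heat-killed Escherichia coli TOP10 cells (challenged). Both were collected 8 h after injection, from 3 mL of hemolymph pooled over larvae. Each condition is 1 library. No value has a replicate error, no difference between the conditions was tested, and an effect of the challenge cannot be told apart from a difference between the libraries. The 95% intervals cover only counting error: exact Poisson for levels, exact Clopper-Pearson for shares of cells, and exact conditional for ratios. A level is given in CPM, the UMIs of a gene per 1000000 UMIs summed over the cells.

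SPARC is a secreted, collagen-binding and calcium-binding glycoprotein of the extracellular matrix, and in Drosophila it is made by hemocytes and fat body. Hemocytin is a large adhesive lectin of lepidopteran hemocytes whose Drosophila counterpart, hemolectin, takes part in clot formation. Circulating hemocytes adhere, encapsulate and form nodules around bacteria, produce antimicrobial peptides, and release prophenoloxidase, the proenzyme of melanin synthesis.

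The naïve library held 81253288 UMIs in 14866 barcodes and the challenged library 94500088 UMIs in 12530 barcodes. The libraries shared 44 barcodes, of which 3 belonged to SPARC-high cells in both. SPARC-high cells were deeper in the challenged library, with a median of 7664 UMIs and 1735 genes against 5698 UMIs and 1420 genes in the naïve library. The other eligible cells had medians of 4283 and 3506 UMIs. When each cell was thinned to 1000 UMIs, SPARC-high cells held a median of 480 genes in the challenged and 461 in the naïve library, and the other cells 457 and 447.

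SPARC-high cells took 29.1% (28.3 to 30.0%) of the eligible naïve cells and 24.5% (23.7 to 25.3%) of the eligible challenged cells. The ratio of the challenged to the naïve share was 0.840 (0.799 to 0.883). This ratio depended on where the SPARC limit lay. With a limit of 50 per 10000 the shares were 34.0% and 33.4% and their ratio was 0.981, and with a limit of 200 they were 16.0% and 7.50% with a ratio of 0.469. Among cells that met the other limits, 137 naïve cells had SPARC between 100 and 110 per 10000 and 132 had 90 to 100. In the challenged library these numbers were 238 and 220. Another 594 naïve and 1021 challenged cells, which equals 16.8% and 36.4% of the SPARC-high cells, lay between 50 and 100. The SPARC-high cells of the challenged library were thus closer to the limit, with a median SPARC level of 167 per 10000 (quartiles 131 and 213) against 211 (156 and 278) in naïve cells.

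**Figure D1:**
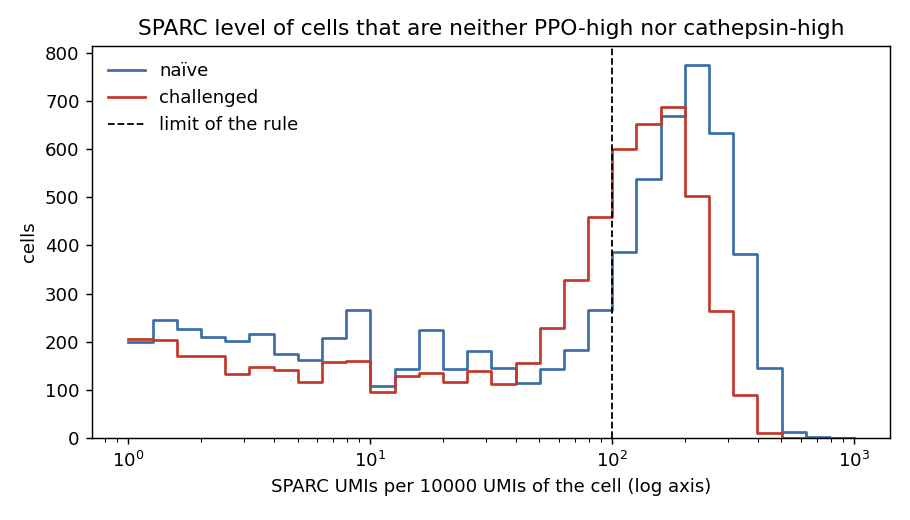
Number of cells (y axis) by SPARC UMIs per 10000 UMIs of the cell (log x axis) in the naïve and the challenged library, for eligible cells that are neither PPO-high nor cathepsin-high. The dashed line is the limit of 100, and 1957 naïve and 1637 challenged cells below 1 per 10000 are not drawn. In both libraries the cell number peaks above the limit, with no gap at the levels below it, and the challenged peak lies further to the left.

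Most of the SPARC signal lay inside the group. SPARC-high cells held 27.7% of the UMIs of eligible naïve cells but 78.7% of their SPARC UMIs, and 24.5% of the UMIs and 69.0% of the SPARC UMIs in the challenged library. Hemocytin (SPEXI_LOCUS10914), which the rule did not use, was concentrated in the same cells, where 84.4% (naïve) and 75.6% (challenged) of its UMIs were found. SPEXI_LOCUS11054 had 71.0% and 61.2% of its UMIs there, and SPEXI_LOCUS3619 had 56.3% and 47.7%. The files give no names for these last loci. All 4 genes were known as markers of these cells from earlier results of the same data.

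The level of hemocytin was 10815 CPM in naïve SPARC-high cells and 766 CPM in the other cells, which is 14.1-fold higher (14.0 to 14.3). In the challenged library it was 10261 against 1071 CPM, or 9.58-fold higher (9.50 to 9.66). SPARC itself stood at 21959 against 2274 CPM in the naïve and 17834 against 2590 CPM in the challenged library. SPEXI_LOCUS11054 was 6.41-fold higher (6.38 to 6.44) in naïve and 4.87-fold higher (4.85 to 4.90) in challenged SPARC-high cells than in the others. For SPEXI_LOCUS3619 the ratios were 3.38 (3.36 to 3.39) and 2.81 (2.80 to 2.83). Each of the 4 ratios was smaller in the challenged library. The hemocytin ratio depended on the SPARC limit, with log2 ratios of 2.67 and 2.11 in the naïve and challenged library at a limit of 200 and of 4.50 and 4.20 at a limit of 50.

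The markers did not all separate SPARC-high from prophenoloxidase-rich cells. The 680 naïve and 811 challenged PPO-high cells carried SPEXI_LOCUS11054 at 25168 and 19821 CPM, against 30915 and 21768 CPM in SPARC-high cells. The SPARC-high level was only 1.23-fold (1.22 to 1.23) and 1.10-fold (1.09 to 1.10) higher. SPARC was present in PPO-high cells as well, at 10238 and 8461 CPM, and 46.3% of naïve and 31.9% of challenged PPO-high cells passed the SPARC limit. Hemocytin differed more, with 1381 and 1386 CPM in PPO-high cells, so that the SPARC-high level was 7.83-fold (7.68 to 7.99) and 7.41-fold (7.28 to 7.53) higher. Even PPO-high cells that passed the SPARC limit had a median of 14.0 hemocytin UMIs per 10000 (naïve) and 19.4 (challenged), against 101 and 103 in SPARC-high cells. Over all genes, 409 of 1181 (34.6%) were at least 2-fold higher and 78 (6.60%) lower in naïve SPARC-high than in PPO-high cells. In the challenged library the counts were 398 of 1277 (31.2%) and 87 (6.81%). The median log2 ratio over all genes of this comparison was 0.53 and 0.33, so these counts sit on a shift of all genes. Cathepsin-high cells passed the SPARC limit in 0.859% and 0.445% of cases.

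**Figure D2:**
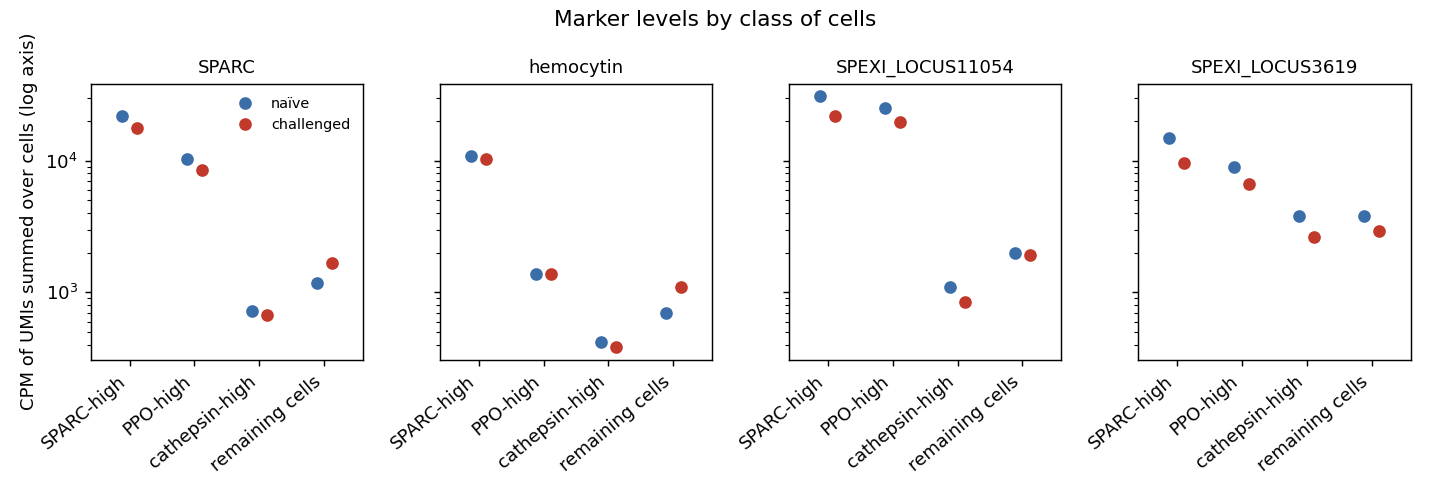
Level of SPARC, hemocytin, SPEXI_LOCUS11054 and SPEXI_LOCUS3619 (CPM of UMIs summed over cells, log y axis) in 4 classes of cells (x axis) of the naïve and the challenged library, 1 point per library. Hemocytin falls from about 10000 CPM in SPARC-high cells to at most 1386 CPM in the other classes, while SPEXI_LOCUS11054 is nearly as high in PPO-high cells.

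Over all genes with at least 100 CPM in the higher group, 220 of 1399 (15.7%) were at least 2-fold higher and 196 (14.0%) at least 2-fold lower in naïve SPARC-high cells than in the other cells. In the challenged library 217 of 1469 (14.8%) were higher and 183 (12.5%) lower. Of 1301 genes measured above this minimum in both libraries, 172 were at least 2-fold higher and 136 at least 2-fold lower in both, and 0 had opposite calls. At least 8-fold differences in both libraries were found for 15 higher and 67 lower genes. The other cells include the PPO-high and cathepsin-high cells that the rule left out, and the genes of the rule are among those counted. These counts therefore depend in part on the rule, and no count was made against the remaining cells alone. The balance of higher and lower genes also depended on the scaling. The TMM factor of edgeR gave 273 higher and 152 lower in the naïve library and 284 and 145 in the challenged library, and giving each cell the same weight gave 195 and 269, and 179 and 217. The median log2 ratio over all genes measured was -0.16 (naïve) and -0.15 (challenged), and 0.18 and 0.12 with the TMM factor. The locus numbers of the files are paired with names only in the gene tables of the study, so most of these genes have no name here, and 40 loci with a complete number in those tables were followed.

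The 4 proteinase and prophenoloxidase genes of the rule and SPEXI_LOCUS2768, an uncharacterized locus, were called lower in both libraries. For the 4 genes the rule fixed this, since it puts the cells rich in them into the comparison group. SPEXI_LOCUS2768 is not in the rule, but its ratio also depends on it. Cathepsin-high cells, which the rule left out, had 76918 and 56563 CPM of this locus in the naïve and challenged library. The remaining cells had 1506 and 1184 CPM and SPARC-high cells 526 and 384 CPM. Against the remaining cells, which lie under the same limits, SPARC-high cells held PPO1 at 517 against 415 CPM in the naïve library. In the challenged library PPO1 was at 661 against 579 CPM. PPO2 was at 401 against 246 and 375 against 288 CPM in the same comparison, and procathepsin H at 921 against 1039 and 1087 against 1637 CPM. Few SPARC-high cells carried much of the PPO1: 72 naïve and 69 challenged cells with PPO1 plus PPO2 of at least 50 per 10000 had 5893 and 6642 CPM. The other SPARC-high cells had PPO1 at 338 and 454 CPM and PPO2 at 187 and 198 CPM. The remaining cells were not divided in this way.

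Both hemicentin genes, which the rule did not use, were lower in SPARC-high cells. Hemicentin 1-like (SPEXI_LOCUS174), whose relatives are large matrix proteins at cell contacts, was at 177 against 2762 CPM in naïve and 131 against 2751 CPM in challenged cells, a ratio of 0.064 (0.062 to 0.066) and 0.048 (0.046 to 0.049). Its log2 ratios of -3.96 and -4.39 became -5.67 and -5.59 without called doublets, and ran from -6.26 to -3.26 and from -6.67 to -3.67 over all alternatives. Its UMIs lay mainly in the remaining cells, at 3401 and 3565 CPM, while PPO-high and cathepsin-high cells had 107 to 331 CPM. Hemicentin 2-like (SPEXI_LOCUS173) had ratios of 0.020 (0.017 to 0.023) and 0.038 (0.032 to 0.045). It was at 8.62 and 6.59 CPM in naïve and challenged SPARC-high cells. PPO-high cells were also low, at 21.5 and 18.6 CPM, as were cathepsin-high cells, at 24.2 and 12.5 CPM. The remaining cells had 534 and 222 CPM. Its log2 ratios of -5.64 and -4.71 became -2.92 and -2.77 when hemocytin chose the cells in place of SPARC, and -6.78 and -5.90 when each cell had the same weight. The sodium/calcium exchanger regulatory protein (SPEXI_LOCUS6327) was at 2828 against 12987 CPM in the naïve and 3849 against 14677 CPM in the challenged library. Its log2 ratios of -2.20 and -1.93 became -3.10 and -2.86 when each cell had the same weight. The other cells include the cathepsin-high cells, which the rule left out and which had 69506 and 65084 CPM. The remaining cells had 9236 and 11324 CPM. PPO-high cells were lower than SPARC-high cells, at 956 and 1205 CPM. SPARC and the hemicentins are all genes of the extracellular matrix, and their transcripts were high in different cells. The 3 muscle genes and the 3 loci of the spherulocyte cluster were all below 100 CPM in both groups of cells, so none was called. MANF homolog, slowmo and paired mesoderm homeobox 2A-like did not reach the 2-fold limit in either library.

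Genes of the translation machinery were at similar levels inside and outside the group. None of the 7 ribosomal protein and elongation factor genes reached the 2-fold limit in either library, and their median log2 ratios were -0.17 and -0.26, against -0.16 and -0.15 over all genes. Ribosomal protein L10 (SPEXI_LOCUS11358) had ratios of 0.990 (0.984 to 0.995) and 1.01 (1.01 to 1.02). Ribosomal protein P0 (SPEXI_LOCUS8264) was lowest, with ratios of 0.702 (0.697 to 0.707) and 0.663 (0.658 to 0.668), or -0.51 and -0.59 on the log2 scale. Its direction turned when each cell had the same weight, to 0.08 and 0.13. The log2 ratios of all 7 genes changed sign over the alternatives in both libraries. The classes of other cells differed, and all 7 genes were lower in cathepsin-high than in SPARC-high cells. Ribosomal protein S23 had 12511 and 10853 CPM in naïve and challenged SPARC-high cells and 4663 and 3953 CPM in cathepsin-high cells. It had 14646 and 13346 CPM in PPO-high and 15677 and 14501 CPM in the remaining cells.

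The antimicrobial genes differed among themselves. PGRP-LB (SPEXI_LOCUS6461), a peptidoglycan-degrading receptor protein that restrains the IMD pathway in Drosophila, was higher in SPARC-high cells, with 214 against 55.0 CPM in the naïve library and 4420 against 1095 CPM in the challenged library. These ratios were 3.90 (3.72 to 4.08) and 4.04 (4.00 to 4.07), or 1.96 and 2.01 on the log2 scale, which became 1.09 and 1.16 when each cell had the same weight and 1.06 and 1.26 at a SPARC limit of 200. Another class was at least as high in the naïve library, where cathepsin-high cells had 238 CPM (224 to 253), PPO-high cells 9.78 and the remaining cells 43.8. In the challenged library SPARC-high cells were highest, and the other classes had 700 to 1276 CPM. Spodoptericin (SPEXI_LOCUS9978), an antimicrobial peptide gene, was lower, with 188 against 1908 CPM and 116 against 1433 CPM. PPO-high cells were also low, at 218 and 205 CPM. Cathepsin-high cells had 504 and 1270 CPM and the remaining cells 2314 and 1690 CPM. Cecropin B (SPEXI_LOCUS6878), which encodes a membrane-lytic peptide, was 0.619 times (0.612 to 0.626) the level of the other cells in the naïve library and 1.56 times (1.56 to 1.57) that level in the challenged library. Its order between SPARC-high and other cells was therefore opposite in the libraries.

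In SPARC-high cells 83 of 1266 genes with at least 100 CPM (6.56%) were at least 2-fold higher and 21 (1.66%) at least 2-fold lower in the challenged than in the naïve library. In the other cells the numbers were 32 (2.39%) and 20 (1.49%) of 1338. Of 1037 genes measured in both groups of cells, 53 were higher in SPARC-high and 30 in the other cells, and 23 were higher in both, which is 43.4% of the first and 76.7% of the second. For the lower genes these numbers were 9, 1 and 0. No test of the difference between the groups of cells was possible.

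Of the 4 immune effector genes 3 were higher in challenged SPARC-high cells. Cecropin B went from 1924 CPM (1905 to 1942) to 26941 CPM (26874 to 27008), a ratio of 14.0 (13.9 to 14.1). In the other cells it went from 3108 to 17259 CPM, a ratio of 5.55 (5.53 to 5.58). Cecropin A1 (SPEXI_LOCUS6881) went from 1392 to 7806 CPM in SPARC-high cells, a ratio of 5.61 (5.54 to 5.68), and its ratio in the other cells was 4.26 (4.22 to 4.29). PGRP-LB had a ratio of 20.6 (20.04 to 21.3) in SPARC-high cells and 19.9 (19.2 to 20.7) in the others. Spodoptericin was at 188 CPM in naïve and 116 CPM in challenged SPARC-high cells and did not reach the 2-fold limit.

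The other classes give the scale of these ratios. For cecropin B the ratio was 20.2 (19.4 to 21.0) in PPO-high, 12.7 (11.9 to 13.7) in cathepsin-high and 5.47 (5.44 to 5.50) in the remaining cells. The level reached was highest in SPARC-high cells, at 26941 CPM against 20955 in the remaining, 7250 in PPO-high and 2402 in cathepsin-high cells. In the naïve library the remaining cells were highest, at 3831 CPM.

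The markers themselves were lower in the challenged library without reaching the 2-fold limit. SPEXI_LOCUS3619 had a ratio of 0.646 (0.643 to 0.650), SPEXI_LOCUS11054 of 0.704 (0.702 to 0.707) and SPARC of 0.812 (0.809 to 0.816). Hemocytin was close to level, at 0.949 (0.943 to 0.954). In PPO-high cells the ratios of SPEXI_LOCUS3619, SPEXI_LOCUS11054 and SPARC were 0.750, 0.788 and 0.826, and hemocytin went from 1381 to 1386 CPM. In the remaining cells SPARC and hemocytin were higher in the challenged library, SPARC at 1180 and 1680 CPM and hemocytin at 704 and 1091 CPM. The rule keeps these cells below the SPARC limit of 100, so their SPARC level depends on that limit. They include 594 naïve and 1021 challenged cells with SPARC between 50 and 100 on the scale of the limit. The part of these cells in both rises was not tested. The 7 translation genes had a median log2 ratio of -0.26 in SPARC-high cells, against 0.06 over all genes, and none was called.

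**Figure D3:**
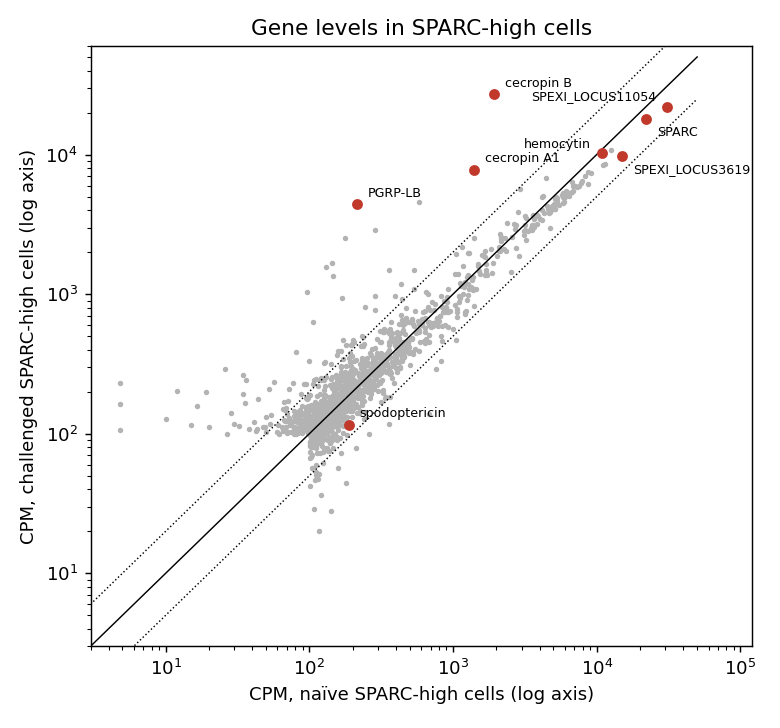
Level of each gene with at least 100 CPM in one of the libraries in naïve (x axis) and challenged (y axis) SPARC-high cells (CPM, log axes), 1 point per gene, with the line of equal levels and dotted lines at 2-fold. Genes at 0 in one library are not drawn. Cecropin B, cecropin A1 and PGRP-LB lie far above the upper dotted line and the 4 markers and spodoptericin between the dotted lines.

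Among loci without a name, SPEXI_LOCUS6883 and SPEXI_LOCUS4897 had the largest rises. SPEXI_LOCUS6883 went from 4.79 to 231 CPM in SPARC-high cells (105 and 5284 UMIs), a ratio of 48.2 (39.7 to 59.0), and from 21.0 to 381 CPM in the other cells, a ratio of 18.1 (17.1 to 19.2). SPEXI_LOCUS4897 went from 4.83 to 163 CPM, a ratio of 33.6 (27.7 to 41.2), while its ratio in the other cells was 2.30 (2.21 to 2.39). The largest falls were those of SPEXI_LOCUS2059, from 117 to 19.9 CPM, and SPEXI_LOCUS252, from 142 to 28.1 CPM. SPEXI_LOCUS2059 had a ratio of 0.170 (0.154 to 0.188) in SPARC-high and 0.660 (0.649 to 0.672) in the other cells. SPEXI_LOCUS252 had 0.198 (0.182 to 0.216) and, from 16.0 to 7.74 CPM in the other cells, 0.485 (0.436 to 0.540).

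Per cell, the level of cecropin B ranged widely. Cecropin B had a median of 5.00 per 10000 UMIs in naïve SPARC-high cells, with quartiles of 0 and 22.1, and of 156 in challenged ones, with quartiles of 27.7 and 425. The 5th and 95th percentiles of challenged cells were 3.50 and 785, so that the ranges of the libraries overlapped. Of the challenged SPARC-high cells 60.5% (58.7 to 62.3%) lay above the naïve 95th percentile of 85.1. For cecropin A1 this share was 52.0% (50.1 to 53.8%) and for PGRP-LB 55.5% (53.6 to 57.3%).

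After thinning to 1000 UMIs, a cecropin B UMI was found in 47.6% (45.9 to 49.2%) of naïve and 88.7% (87.5 to 89.9%) of challenged SPARC-high cells. Cathepsin-high cells, the class with the lowest cecropin B level, had 14.5% and 63.0% after the same thinning. The part of free RNA in these shares was not tested. The unthinned shares in SPARC-high cells were 73.8% and 99.2%. PGRP-LB was found in 10.4% (9.37 to 11.4%) and 61.6% (59.7 to 63.4%) of thinned SPARC-high cells, against 6.01% and 15.4% of cathepsin-high cells, and in 22.3% and 76.7% without thinning. The median depths were 1848 and 2122 UMIs in cathepsin-high cells and 5698 and 7664 in SPARC-high cells.

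**Figure D4:**
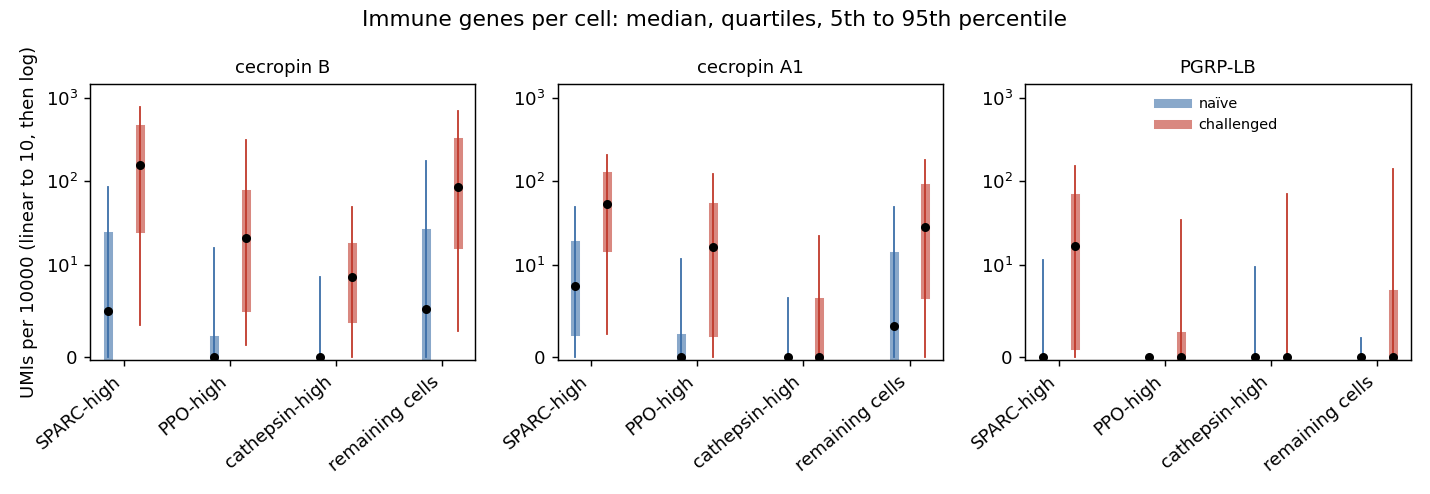
Cecropin B, cecropin A1 and PGRP-LB per 10000 UMIs of the cell (y axis, linear to 10 and log above) in 4 classes of cells (x axis), naïve and challenged. Points are medians, thick bars quartiles and thin lines the 5th to 95th percentile over cells of 1 library. The challenged SPARC-high cells have the highest medians of all 3 genes.

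The 3 immune effector genes that were higher in the challenged library varied together among challenged SPARC-high cells. Over 2804 cells thinned to 1000 UMIs, Spearman's rho of cecropin B was 0.85 with cecropin A1 and 0.78 with PGRP-LB, against 0.51 and 0.33 over 3543 naïve cells. These cells share a library, so the values only describe it. When the challenged cells were divided into 4 equal parts by cecropin B, its level was 980 CPM in the lowest and 63236 CPM in the highest part of 701 cells each. PGRP-LB went from 169 to 10267 CPM and cecropin A1 from 1007 to 15833 CPM over the same parts. Hemocytin was at 10839 CPM in the lowest and 9432 CPM in the highest part, and SPARC at 16320 and 17879 CPM. The median depth was 6877 UMIs in the lowest and 8390 UMIs in the highest part, and its part in the pattern was not tested.

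SPARC-high cells also varied in the markers. With rising SPARC, the median of SPEXI_LOCUS11054 rose from 179 per 10000 in naïve cells with SPARC between 100 and 120 to 463 in those at 300 or more, and from 135 to 336 in challenged cells. Hemocytin rose from 72.3 to 138 and from 71.5 to 130. Both levels were already present below the limit: at 75 to 100 SPARC per 10000 hemocytin had a median of 64.3 in 319 naïve and 47.8 in 539 challenged cells, and in cells under 10 it was 0.314 and 0. Of the named genes SPEXI_LOCUS11054 was most like SPARC over SPARC-high cells, with a rho of 0.53 in naïve and 0.38 in challenged cells, followed by hemocytin with 0.33 and 0.17. The next were MANF homolog at 0.09 in naïve and SPEXI_LOCUS3619 at 0.15 in challenged cells, both weak. In naïve cells SPEXI_LOCUS3619 did not follow SPARC, with a rho of -0.00075. SPEXI_LOCUS3619 had a negative rho with hemocytin, -0.31 in naïve and -0.25 in challenged cells.

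**Figure D5:**
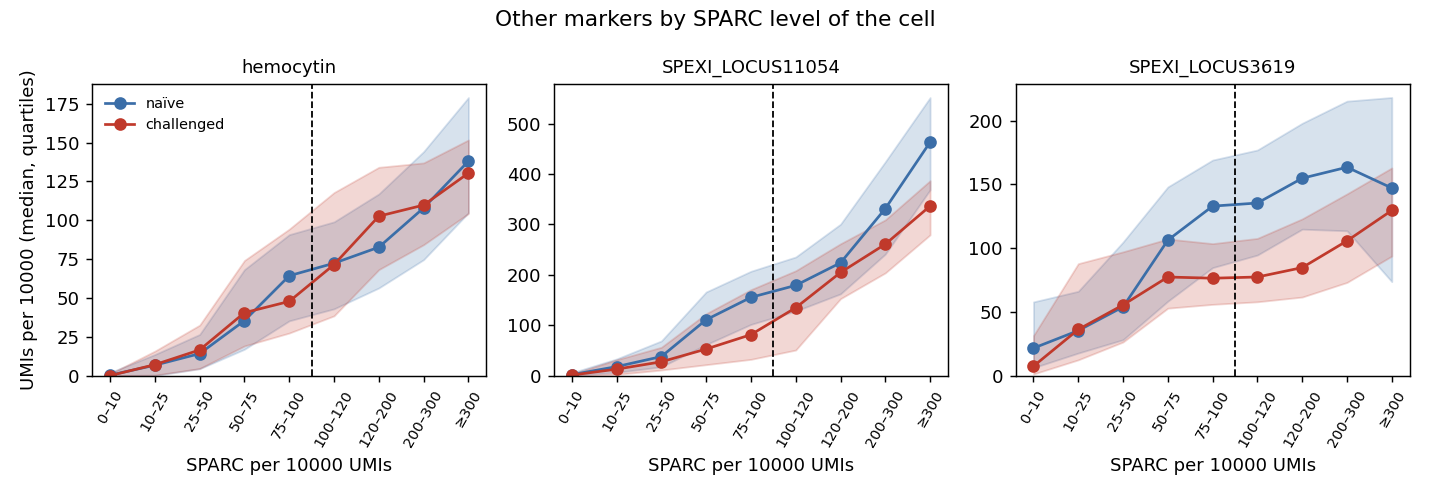
Median (points) and quartiles (shaded) of hemocytin, SPEXI_LOCUS11054 and SPEXI_LOCUS3619 per 10000 UMIs (y axis) in cells grouped by SPARC level (x axis), for cells that are neither PPO-high nor cathepsin-high. The dashed line marks the limit of 100; hemocytin and SPEXI_LOCUS11054 climb through it in both libraries without a step.

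Hemocytin of at least 50 per 10000 was found in 85.7% (84.5 to 86.9%) of naïve and 84.5% (83.1 to 85.8%) of challenged SPARC-high cells. Choosing cells by this limit in place of the SPARC limit gave 3383 and 2890 cells, of which 89.8% and 82.0% were SPARC-high. The 435 challenged SPARC-high cells with less hemocytin had 9726 CPM of SPEXI_LOCUS11054 against 23851 CPM in the rest, and the 506 naïve ones 19859 against 32733 CPM. Summed over cells, those with less hemocytin held more PPO1, at 1250 against 559 CPM in the challenged and 1410 against 370 CPM in the naïve library. The medians per cell were closer, at 4.56 against 4.30 PPO1 UMIs per 10000 (challenged) and 3.90 against 2.91 (naïve).

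The sodium/calcium exchanger regulatory protein varied widely within the group. Its quartiles were 3.68 and 42.7 per 10000 in naïve and 8.54 and 59.2 in challenged SPARC-high cells, around medians of 8.63 and 23.8. Cells with at least 25 per 10000 made up 32.7% (31.1 to 34.2%) of the naïve and 48.5% (46.6 to 50.4%) of the challenged group, and 145 and 334 cells lay between 0.8 and 1.2 times that limit, which was set after the values were seen. SPEXI_LOCUS11054 was at 22272 CPM in naïve cells above the limit against 35070 CPM below it, and at 20456 against 23005 CPM in challenged cells. The cells above the limit also held more procathepsin H, with 2403 against 209 CPM in the naïve and 2036 against 192 CPM in the challenged library, and more of them were called as doublets, 5.01% against 4.02% and 1.84% against 0.416%. The gene of the regulatory protein itself was highest in cathepsin-high cells, at 69506 and 65084 CPM. The part of transcripts or doublets of that class in this split was not tested.

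Transcripts of other classes were concentrated in few SPARC-high cells. The top 1% of cells held 52.6% and 50.4% of the procathepsin H UMIs in the naïve and challenged library, and 82.7% and 82.4% of those of hemicentin 1-like. Of the 28 naïve and 14 challenged cells with at least 20 hemicentin 1-like UMIs per 10000, Scrublet called 60.7% and 57.1% as doublets, against 4.35% and 1.11% of all SPARC-high cells. With the log transform these shares were 64.3% and 71.4%, against 6.44% and 3.32%. PPO1 plus PPO2 of at least 50 per 10000 was found in 72 and 69 cells, with median depths of 9484 and 11004 UMIs. Without the 219 naïve and 185 challenged SPARC-high cells that carried transcripts of another class, 80 genes were at least 2-fold higher and 22 lower in the challenged library, against 83 and 21 with them.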

How the data were processed

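Hemocytes of naïve and challenged larvae were each measured in 1 droplet library (10x Genomics 3′ chemistry). The authors deposited raw UMI counts per gene and barcode, made with Cell Ranger (version 7.2.0 in the file headers), for 13002 loci. Gene names came from the supplementary gene tables of the study, and 7 loci whose numbers may be shortened there were left out. The mitochondrial filter of the study was not applied. The members, markers and lists were chosen with earlier results of these data known. Named genes are those the tables pair with a complete locus number, with the 2 largest rises and falls among loci without a name.

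UMIs were summed over cells and scaled to CPM. Genes with at least 100 CPM in the higher group were called at a 2-fold difference, and a group at 0 was set to 3 UMIs. No p-value was computed. Cells were thinned to 1000 UMIs for shares and correlations. A class cut from a level is a range of cells, not a type. PPO-high, cathepsin-high and remaining cells are the other eligible cells, and cells over both limits were counted as PPO-high.

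Scrublet (scanpy 1.11.5) was tried in several settings. The default called 0 naïve and 1 challenged cells, which is a failed run. With the expected rate set to 0.8% per 1000 cells it called 432 (2.91%) and 194 (1.55%), and with a log transform in addition 934 (6.29%) and 593 (4.73%), against 11.9% and 10.0% expected. The threshold was unstable: with the expected rate rounded to 3 decimals it called 332 naïve cells and again 194 challenged cells. The second setting is used, since it departs least from the default, the third is given as an alternative, and called cells were kept. The changed settings were chosen after the default had failed. The calling rule was run on simulated summed counts in which genes were changed by more than 2-fold, after a shift by the median ratio. The main calls used no such shift, so the simulation does not test them as made. The tools were edgeR 4.0.16 in R 4.3.3, and matplotlib 3.10.9, pandas 2.3.3, scipy 1.17.1 and numpy 2.4.6 in Python 3.11.15. Alternatives covered the limits, depth, doublets, scaling and gene minimum.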

Additional observations from a re-analysis of the deposited data

Results flagged for a closer look

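For 1 locus without a name the libraries differed in opposite directions in SPARC-high and in other cells. In SPARC-high cells it went from 107 CPM in the naïve to 631 CPM in the challenged library (2341 and 14451 UMIs), a log2 ratio of 2.56. In the other cells it went from 1377 to 457 CPM (79003 and 32375 UMIs), a log2 ratio of -1.59. It was the only one of 1037 genes measured in both groups of cells that was at least 2-fold different in opposite directions. With 1 library per condition the difference was not tested.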

How the results depend on the processing

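No paired analysis was possible because each condition has 1 library. Of 135 counts and shares recomputed under an alternative, 102 stayed within 1.5 times the count or within the counting interval of the share and 33 did not. Of 80 shares of cells with a UMI of a named gene, 75 left their counting interval when cells were taken at full depth in place of 1000 UMIs, and 5 stayed. Of 1680 recomputed log2 level ratios of the named genes, 1640 kept their place relative to the 2-fold limit. Another 39 reached 2-fold only under an alternative, and 1 fell below it. Some of these had the opposite sign, such as troponin T in the challenged library, at 0.91 and as low as -1.58. None of the ratios that were 2-fold in the main setting changed direction.

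The share of SPARC-high cells moved most with the SPARC limit: 34.0% of naïve and 33.4% of challenged cells (ratio 0.981) at 50 per 10000, and 16.0% and 7.50% (ratio 0.469) at 200. It was 24.4% and 22.6% (ratio 0.926) with at least 500 UMIs per cell and 36.9% and 29.6% with at least 2000. With hemocytin in place of SPARC, an alternative chosen after seeing the data, the naïve share was 27.8% and the ratio 0.906. Without cells that carried transcripts of another class, also chosen after seeing the data, the shares were 27.8% and 23.2%. The point value of the ratio of the shares was below 1 under each of these alternatives. At 50 per 10000 it was close to 1 (0.981), and no intervals are given for these ratios. Leaving out doublets by either Scrublet setting kept all counts and shares in range, with ratios of 0.853 and 0.849.

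The number of genes lower in SPARC-high than in other cells was 296 (naïve) and 283 (challenged) with totals without the 50 most abundant genes, 329 and 302 with a minimum of 50 CPM, and 108 and 94 with 200 CPM, where 137 were higher in the naïve library. Without a minimum 763 were higher and 3011 lower in the naïve library, and 985 and 2251 in the challenged library. Genes lower in challenged SPARC-high cells numbered 39 with a SPARC limit of 200, 39 with totals without the 50 most abundant genes and 53 with 50 CPM, while 200 CPM gave 54 higher and 7 lower, and no minimum gave 744 and 918. The change of minimum changes the number of genes tested, and leaving abundant genes out of the totals raises every level past it; the other causes were not tested. Shares of cells with a UMI are limited by depth: that of cecropin B in naïve SPARC-high cells was 47.6% at 1000 UMIs and 73.8% at full depth.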
